A study of Mus musculus with 18 samples.

Results

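The subunits of the mitochondrial respiratory chain that are encoded in the nucleus were followed in RNA of mouse splenocytes. Members were taken by gene symbol: the Nduf a, b, c, s and v families (complex I), Sdha to Sdhd (complex II), the Uqcr genes (complex III), the Cox families 4 to 8 written with a letter a to c (complex IV) and the Atp5 genes (ATP synthase, complex V), at a mean of at least 1 FPKM over the 18 libraries. FPKM scales fragments by the length of the gene and the depth of the library, so levels of different genes can be set side by side. The rule matched 82 of 47729 reference genes, besides 4 pseudogene names ending in -ps that it leaves out. Of the 82, 78 passed the minimum: 36 of complex I, 4 of complex II, 8 of complex III, 13 of complex IV and 17 of complex V. The 4 that did not pass were Ndufa4l2 (mean 0.0849 FPKM), Cox8b (0.00693), Cox7b2 (0.00408) and Cox8c (0), all with tissue-restricted expression. Just inside stood Cox6a2 (1.87 FPKM), Cox6b2 (2.01) and Cox7a1 (2.06), also paralogues best known from muscle, heart or testis. All 78 were protein-coding and entered the tests. Symbols do not follow function everywhere: Ndufa4 is now counted with complex IV, Atp5sl (Dmac2) takes part in complex I assembly, Atp5s (factor B) is no core subunit, Cox7a2l acts in supercomplex assembly, and the subunits Cox4i1 (complex IV) and Cyc1 (complex III) are not matched.

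The spleens came from C57BL/6J mice, which the labels call female and, in the growth protocol, 4 to 6 weeks old. LPPC is a liposomal carrier onto which proteins bind, and MP stands for the membrane protein fraction of antigen-loaded dendritic cells. Group N (3 libraries) was naive. Group LM (3) had 2 injections of LPPC/MP and was taken in week 3. Groups LMA (6) and LMS (6) had the same injections and then 1 or 2 modulations with LPPC/MP that also carried an antibody, to CD28 in LMA and to CD152 (CTLA4) in LMS, and were taken in weeks 4 to 5. The labels do not separate 1 from 2 modulations, and no group received LPPC/MP alone in those weeks. A further conflict is that the protocol fields describe melanoma tumours, while 4 melanoma markers together reached at most 1.97 FPKM. No source used here states that libraries came from separate animals, so p-values measure the spread between libraries.

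Libraries of N and of LMS did not resemble each other within their group. N 1, N 2, LMS 2 and LMS 5 had Ddx3y, Eif2s3y and Kdm5d at 0 and Uty at up to 0.00204 FPKM, all genes of the Y chromosome, and Xist at 48.1 to 59.9 FPKM, whereas the other 14 libraries, also labelled female, had Ddx3y at 11.9 FPKM or more. The summed FPKM of 6 T cell markers was 288 to 448 in those 4 libraries, 39.9 to 88.0 in LM and LMA, and 3.84 to 50.3 in N 3 and LMS 1, 3, 4 and 6. For 5 B cell markers the ranges were 1082 to 1446, 164 to 265 and 25.1 to 268, and for 7 macrophage and monocyte markers 387 to 448, 2093 to 2285 and 3263 to 3630. For 6 neutrophil markers they were 211 to 464, 1360 to 2612 and 24.4 to 289, so that every LM and LMA library was above every N and LMS library, and LMA (1920 to 2612) above LM (1360 to 1591). The part of these cells in any difference of LM or LMA was not tested. No T cell, B cell, macrophage or neutrophil marker was at 0 in any library. Hemoglobin genes took 16.9% to 18.4% of the FPKM in N 2, LMS 2 and LMS 5, 0.671% in N 1, and at most 1.85% elsewhere. In bulk RNA, fewer cells of a type and less RNA per cell cannot be told apart. Each comparison is therefore also given without N 1, N 2, LMS 2 and LMS 5, called the Xist-high set, and without the remaining N and LMS libraries, called the Xist-low set. In the Xist-low set Xist was at 0.29 to 2.69 FPKM. Where 2 values are given without either set, the value without the Xist-high set comes first. Both sets were chosen after the data were seen, from the T cell, B cell and Y-linked transcripts.

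The respiratory chain lies in the inner mitochondrial membrane. Complexes I and II take electrons from NADH and succinate, complex III passes them to cytochrome c, complex IV reduces oxygen, and the proton gradient that complexes I, III and IV build drives ATP synthase. A small set of subunits is made from mitochondrial DNA and the remaining subunits, including all of complex II, from nuclear genes. In the spleen, resting lymphocytes are small cells with little cytoplasm, and macrophages are large and rich in organelles.

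Promoters of these genes are known for sites of NRF1, YY1 and the ETS factor GABP. RefSeq promoters of GRCm38.p6, from 250 bases before to 50 after the start, were at hand for 67 of the 78 members and for 27025 genes in all. These 27025 are the genes meant by all genes in this paragraph. Unlike the 11436 genes tested, they were not filtered for expression. The NRF1 word, given in capitals in the sequences that follow, which reads the same on both strands, was in 7.46% of the members (5 genes: Ndufa11, Uqcrc1, Cox6a1, Atp5g2 and Atp5k) and in 1.07% of all genes. On either strand, the YY1 core AAGATGGC was in 16.4% of members and 3.19% of all genes, and the ETS word CCGGAAG in 23.9% and 9.93%. The ETS word ends in the letters that open the YY1 core, so a stretch can count for both. A match is a description of letters and not of binding. Shown are the 4 members whose NRF1 word lay before the RefSeq start, which put the same word beside genes of 3 complexes. The word is in capitals with up to 25 bases on each side, 5′ to 3′ on the strand of the gene. The Ndufa11 stretch lies at chr17:56717677-56717736 on the plus strand, Cox6a1 at chr5:115349086-115349145, Atp5g2 at chr15:102671055-102671114 and Atp5k at chr5:108434415-108434474, these on the minus strand. By the deposited gene coordinates, the Atp5g2 stretch lies inside the gene (102662864 to 102672352). The Atp5k stretch spans 108434448, where its gene begins on the minus strand. Letters after the RefSeq start matched the opening of an annotated transcript in 20 of 23 plus-strand and 32 of 48 minus-strand windows.
Ndufa11: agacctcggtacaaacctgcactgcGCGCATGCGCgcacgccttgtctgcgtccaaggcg
Cox6a1: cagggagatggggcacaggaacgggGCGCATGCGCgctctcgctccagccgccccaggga
Atp5g2: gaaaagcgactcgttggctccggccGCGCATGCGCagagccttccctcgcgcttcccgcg
Atp5k: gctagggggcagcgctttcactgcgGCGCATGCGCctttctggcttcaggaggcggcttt

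All 5 complexes showed the same 3 levels of transcript across the libraries. The summed FPKM of the 78 members was 3081 in N 1, 3231 in N 2, 2996 in LMS 2 and 3045 in LMS 5. It was 4558 to 4612 in the 3 LM libraries and 4373 to 4578 in the 6 LMA libraries. In N 3 it was 5391, and in LMS 1, 3, 4 and 6 it was 5425, 5406, 5388 and 5259. The libraries thus fell on 3 separate levels, with LM and LMA in the middle and with both N and LMS split between the lowest and the highest. By complex, the sums were 867 to 921, 1199 to 1307 and 1423 to 1463 FPKM for complex I on the 3 levels. For complex II they were 128 to 138, 196 to 213 and 244 to 261. Those of complex III were 342 to 375, 538 to 589 and 680 to 694. The complex IV subunits summed to 575 to 644, 942 to 997 and 1101 to 1113, and those of complex V to 1077 to 1153, 1480 to 1587 and 1778 to 1912. No complex had overlapping levels. As a share of the FPKM of all protein-coding genes, the members took 0.896% to 1.04%, 1.49% to 1.55% and 1.67% to 1.79%. The macrophage marker sum followed the same order of levels, carried by Lyz2 (267 to 307, 1386 to 1491 and 2589 to 2888 FPKM), as did Csf1r and Cd14. Itgam, Cd68 and Adgre1 were highest in LM and LMA and Mrc1 on the lowest level, and the mean log2(FPKM + 0.5) of the 7 markers was 4.64 to 4.82, 6.60 to 6.66 and 6.34 to 6.46. T and B cell marker sums were highest on the lowest level, and the part of cell makeup in these sums was not tested. N 1, with 0.671% hemoglobin, had a sum of 3081 FPKM, and the 3 libraries rich in hemoglobin had 2996 to 3231. As a share of protein-coding FPKM, the members took 1.04% in N 1 and 0.896% to 0.902% in those 3. The part of hemoglobin was not tested.

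**Figure D1:**
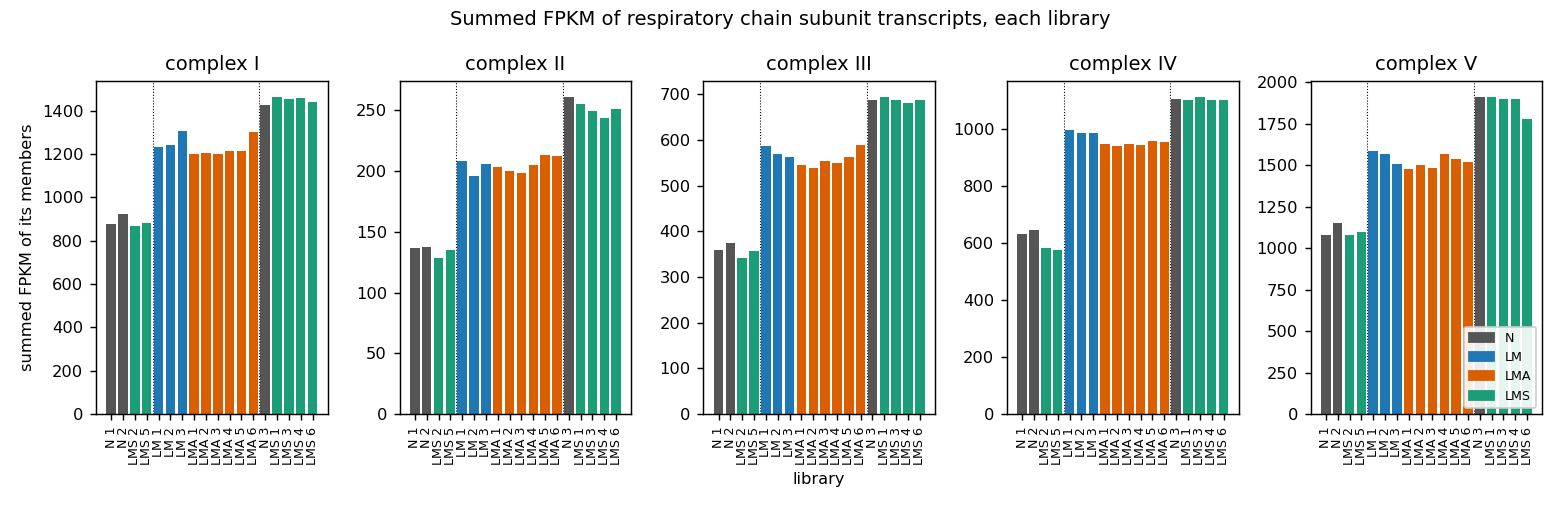
Bars give the summed FPKM of the members of complexes I to V in each of the 18 libraries, coloured by group, with dotted lines between N 1, N 2, LMS 2 and LMS 5 (left), LM and LMA (middle) and N 3 and LMS 1, 3, 4 and 6 (right). In every complex the left bars are the lowest and the right bars the highest, as in complex I with 867 to 921, 1199 to 1307 and 1423 to 1463 FPKM.

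Single members mostly followed their sum. In 56 of 78 members (71.8%) N 1, N 2, LMS 2 and LMS 5 were all below the other 14 libraries, against 28.1% of the 11436 genes tested. Atp5sl alone had all 4 above the others (1.28% against 29.2%). In 42 members (53.8%) N 3 and LMS 1, 3, 4 and 6 all stood above the remaining 13 libraries, against 19.0% of all genes. LM and LMA lay between both sets, with no overlap, in 39 members (50%) against 10.8% of all genes. By complex that middle position was held by 16 of 36 members of complex I, 2 of 4 of complex II, 6 of 8 of complex III, 7 of 13 of complex IV and 8 of 17 of complex V. No member had the 9 LM and LMA libraries all above the other 9 (9.21% of all genes), and only Ndufb11 had them all below (12.8%). Within LM and LMA the members were even, with a median coefficient of variation of 4.70% over the 9 libraries and 7.33% for all genes tested.

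**Figure D2:**
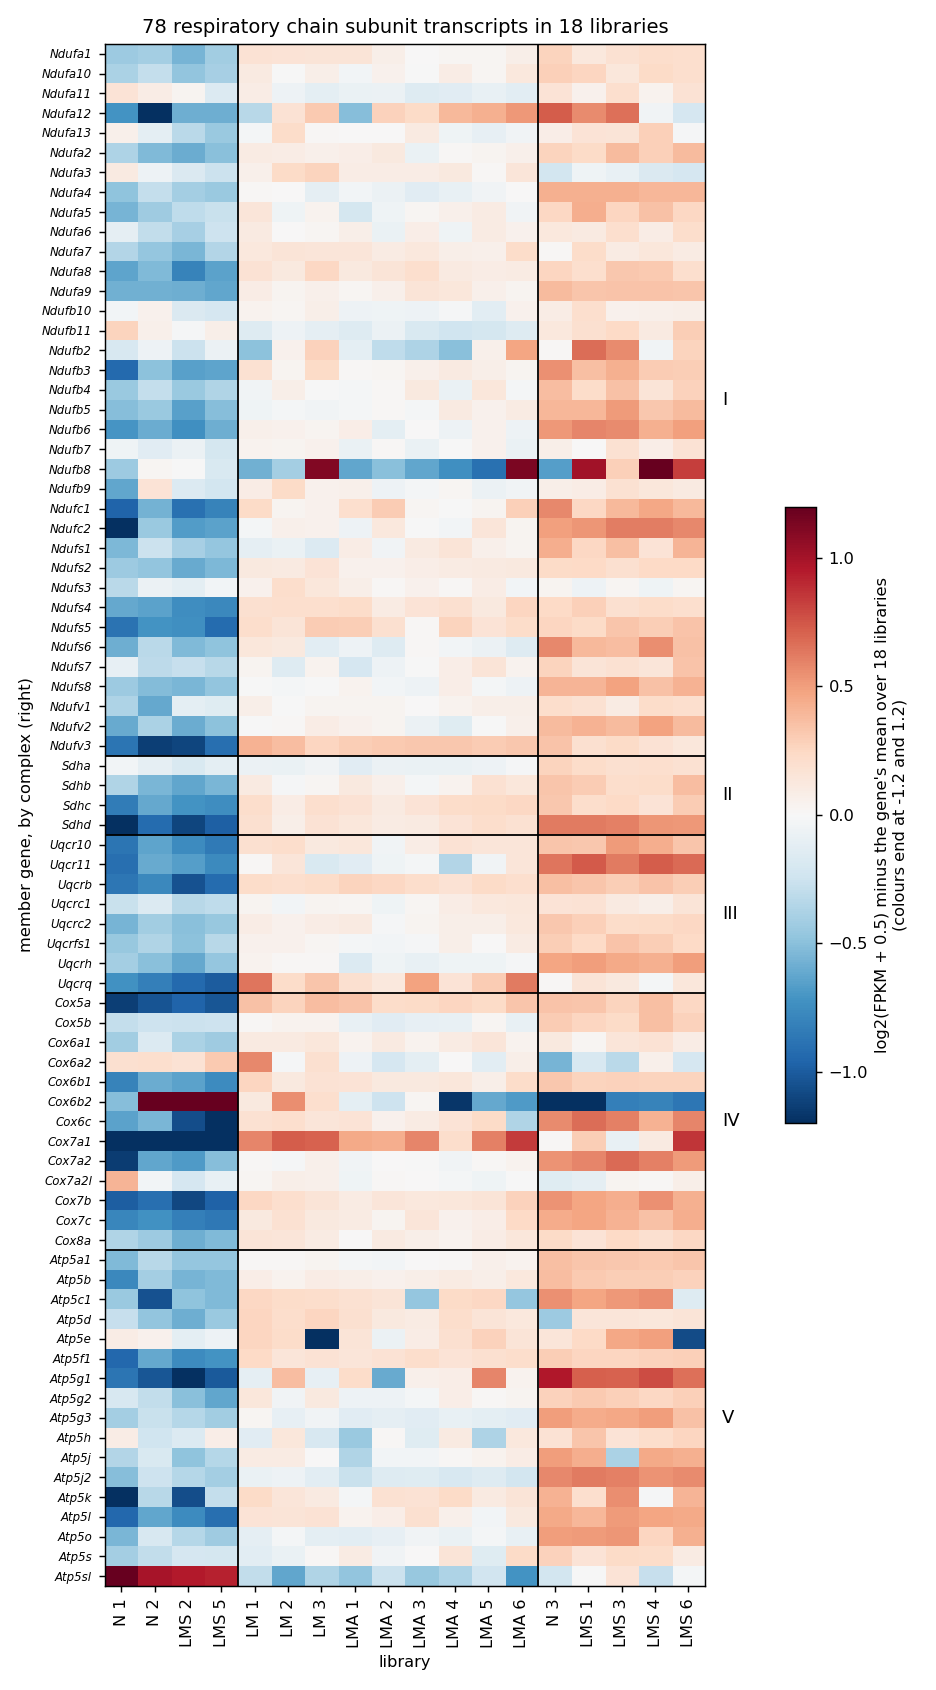
Each row is a member gene, grouped by complex, and each column a library in the order N 1, N 2, LMS 2, LMS 5, then LM and LMA, then N 3 and LMS 1, 3, 4 and 6. Colours give log2(FPKM + 0.5) minus the gene's mean over the 18 libraries, blue below and red above, cut at -1.2 and 1.2. Most rows pass from blue through pale to red, as 39 of 78 members do without overlap, and Atp5sl, Cox6b2, Ndufb11 and Ndufa3 do not.

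The comparison of treated with naive mice asks whether the complexes moved the transcripts of these genes. With all 18 libraries in 1 limma fit (Benjamini-Hochberg adjusted p under 0.05 over all genes tested), LM against N called 4 members higher and 2 lower, 5.13% and 2.56% of the members beside 9.18% and 15.9% of all genes. For LMA against N, 4 were higher and 3 lower (5.13% and 3.85%) beside 13.6% and 21.9% of all genes. The median member log2 fold change was 0.29 for LM and 0.22 for LMA, while the medians of all genes were -0.11 and -0.13. LMS against N called 0 members and 0.00% of all genes. At an unadjusted p under 0.05 (limma) were 2 of 78 members and 506 of the 11436 genes. Members called were thus fewer than the background share in both LM and LMA. Scaling by medians of ratios gave 14 higher and 2 lower for LMA against N, beside 18.9% and 15.4% of all genes, with a median of all genes of -0.02. The counts moved with single N libraries, though Ndufb11 in LMA against N stayed called under every alternative run. Without N 1, N 2 or N 3 the LM count was 2, 2 or 35, beside 17.9%, 17.5% and 58.2% of all genes. The LMA count was 3, 2 or 39, beside 23.2%, 23.5% and 66.0%. Without LM 1, LM 2 or LM 3 the LM count was 2, 1 or 1, beside 15.8%, 17.2% and 15.5% of all genes. LMS against N had 13 calls without N 3, beside 33.5% of all genes.

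The direction depended on which N libraries were kept. Without the Xist-high set, LMA against N called 45 members lower and 5 higher, beside 36.0% and 25.6% of all genes, with a member median of -0.26. Without the Xist-low set, the same comparison called 60 members higher and 5 lower, beside 35.6% and 44.3% of all genes, with a median of 0.48. LM against N gave 41 lower and 5 higher without the Xist-high set (34.4% and 25.8% of all genes) and 63 higher and 2 lower without the Xist-low set (34.7% and 42.1%). Without the Xist-high set N is a single library, N 3, which is assumed to vary like the other groups. LMS against N had member medians of -0.01 without the Xist-high set and -0.04 without the Xist-low set. Without the Xist-low set it called 0 members, beside 0.00874% of all genes in each direction. There 12 of 78 members and 2285 of the 11436 genes were at an unadjusted p under 0.05 (limma).

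Between the modulated groups, which asks how the CD28 and CTLA4 antibodies differed, the fit of all libraries called Ndufa3 higher and Ndufb11 and Atp5sl lower in LMA than in LMS, beside 11.3% and 19.4% of all genes. The member median was 0.02 and that of all genes -0.12. Without LMS 6 there were 5 calls, beside 29.5% of all genes. Without the Xist-high set, 56 members were lower and 2 higher in LMA (44.0% and 28.0% of all genes, member median -0.23). Without the Xist-low set, 63 were higher and 4 lower (36.6% and 42.2%, median 0.52). Against LM, LMS had 1 member higher (Ndufb11) and 1 lower (Ndufa3), beside 13.3% and 7.94% of all genes. There was 1 call without LM 1 or without LM 3, beside 14.2% and 14.5% of all genes. With the replicate number as a block there was 1, beside 1145 higher and 748 lower of all genes. The count became 46 higher and 7 lower without the Xist-high set (40.5% and 27.6% of all genes), and 2 higher and 64 lower without the Xist-low set (40.5% and 35.4%). LMA against LM called 0 members and 0.00% of all genes. At an unadjusted p under 0.05 (limma) were 0 members and 131 of the 11436 genes. A fit of these 2 groups alone also called 0 members, beside 19 higher and 29 lower of all genes. In that fit 14 of 78 members and 1278 of the 11436 genes were at an unadjusted p under 0.05. The comparisons share libraries and are given side by side only.

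**Figure D3:**
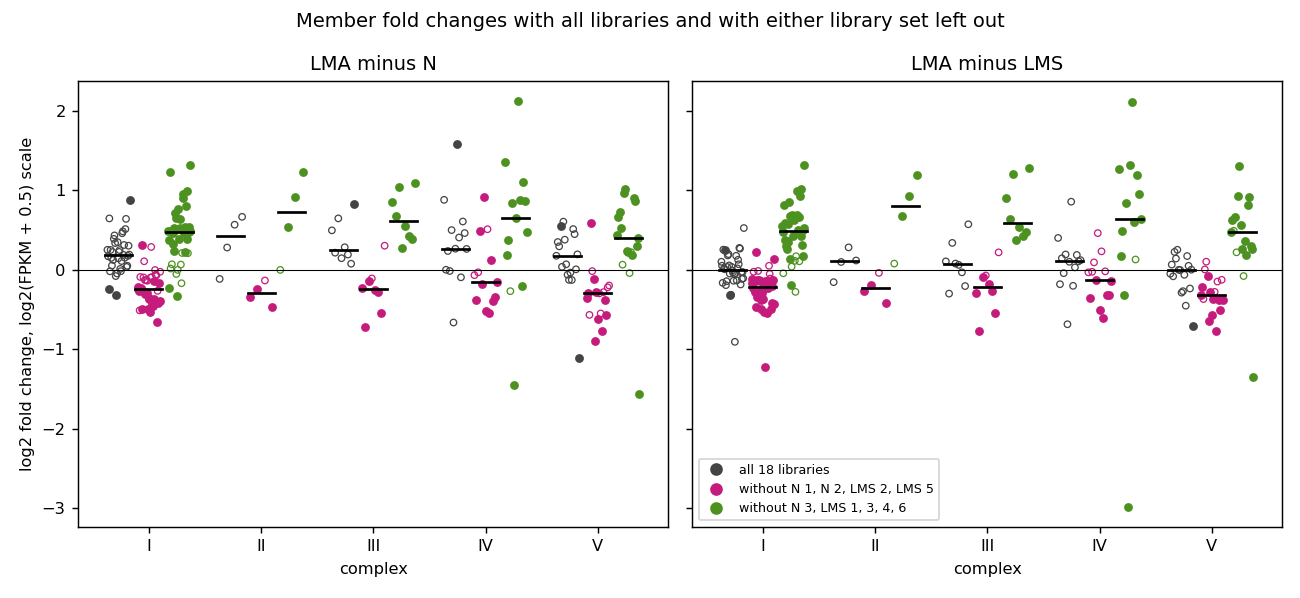
Points are the log2 fold changes of the 78 members by complex, on the log2(FPKM + 0.5) scale, for LMA minus N (left) and LMA minus LMS (right), filled where the adjusted p of limma was under 0.05, with black lines at the median. Grey points use all 18 libraries, with 62 of 78 members above 0 in LMA minus N and 42 in LMA minus LMS. Pink points leave out N 1, N 2, LMS 2 and LMS 5 and lie mostly below 0. Green points leave out N 3 and LMS 1, 3, 4 and 6 and lie mostly above 0. The medians in LMA minus N were 0.22 (grey), -0.26 (pink) and 0.48 (green).

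Complex I carries its core subunits Ndufv1, Ndufv2 and Ndufs1, 2, 3, 7 and 8, which bind the flavin and the iron-sulfur clusters, and many accessory subunits. Ndufb11 is an accessory subunit of the membrane arm encoded on the X chromosome (chrX:20615326-20617619, minus strand, mm10). It was lower in LMA than in N, while 62 of 78 members were above 0 with all libraries. Ndufa11 and Atp5sl were also called lower there. Without the Xist-high set 69 of 78 members were below 0. Ndufb11 was at 38.0, 32.7 and 34.3 FPKM in N, 28.2, 30.1 and 29.2 in LM, 26.7 to 30.0 (median 27.9) in LMA and 31.1 to 38.6 (median 34.9) in LMS. Every LM and LMA library was below every N and LMS library, including both kinds of library within N and LMS. The log2 fold change was -0.32 ± 0.07 (SE) for LMA against N (adjusted p = 0.0040) and -0.32 ± 0.06 against LMS (adjusted p = 8.2e-04), in the limma fit with Benjamini-Hochberg adjustment. Without either library set it stayed called, at -0.29 and -0.33 against N and at -0.38 and -0.20 against LMS. For LM against N it fell by 0.26 (adjusted p = 0.039), and for LMS against LM it rose by 0.26 (adjusted p = 0.021); the latter was 0.14 (adjusted p = 0.083) without the Xist-low set and 0.27 (adjusted p = 0.064) with the replicate number as a block. Neutrophil marker sums had the same split with the opposite sign, 1360 to 2612 FPKM in LM and LMA and 24.4 to 464 in N and LMS, and their part in this difference was not tested. Ndufb11 overlaps Rbm10 on the other strand, and since the strand setting of the counting is not given in the sources used here, reads of the pair cannot be told apart.

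Ndufa3, another accessory subunit of the membrane arm (chr7:3617373-3620327, plus strand), differed between the modulated groups. Its FPKM was 30.9, 27.5 and 24.5 in N, 30.0, 33.7 and 34.5 in LM, 28.9 to 31.8 (median 30.6) in LMA and 23.9 to 27.6 (median 25.4) in LMS. All LMA libraries were above all LMS libraries, and 2 members showed this (Ndufa3 and Ndufv3) beside 12.4% of all genes. LMA exceeded LMS by a log2 value of 0.25 ± 0.06 (adjusted p = 0.0058) and LMS fell by 0.34 ± 0.08 from LM (adjusted p = 0.0037), both in limma. Leaving out either library set gave 0.22 and 0.30 for LMA against LMS, both still called. Against N, the LMA difference of 0.15 missed the threshold (adjusted p = 0.13). Ndufa3 overlaps Tfpt on the other strand.

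Ndufv3, an accessory subunit of the NADH-oxidizing arm, shows how the split within N sets a call. It stood at 27.3, 22.8 and 64.2 FPKM in N, 60.8 to 68.0 in LM, 62.3 to 63.6 (median 63.2) in LMA and 23.4 to 59.5 (median 56.6) in LMS. N 3 was as high as LM and LMA, and LMS 2 and LMS 5 were as low as N 1 and N 2. LMA rose by 0.87 ± 0.32 against N (limma, adjusted p = 0.045), which was -0.025 (adjusted p = 0.67) without the Xist-high set and 1.32 (adjusted p = 7.5e-09) without the other set. Ndufa11, one of the lower expressed subunits with a mean of 4.81 FPKM, was at 5.43, 5.11 and 5.42 FPKM in N and 4.25 to 4.53 (median 4.41) in LMA, without overlap. It fell by 0.25 ± 0.08 (adjusted p = 0.026), and by 0.27 and 0.24 without either set. The core subunit Ndufs3 was higher in LM (35.9, 40.2 and 38.3 FPKM) than in N (27.6, 33.2 and 35.6), by 0.25 ± 0.09 (adjusted p = 0.043), and was 0.10 (adjusted p = 0.20) without the Xist-high set. Kbtbd4 overlaps it on the other strand. Ndufa7 had all LMA libraries (52.8 to 59.0 FPKM) above N (39.4, 36.6 and 51.1), with a fold change of 0.39 that missed the threshold (adjusted p = 0.053). Not overlapping above N were 4 members and below N 3, beside 11.8% and 18.5% of all genes.

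**Figure D4:**
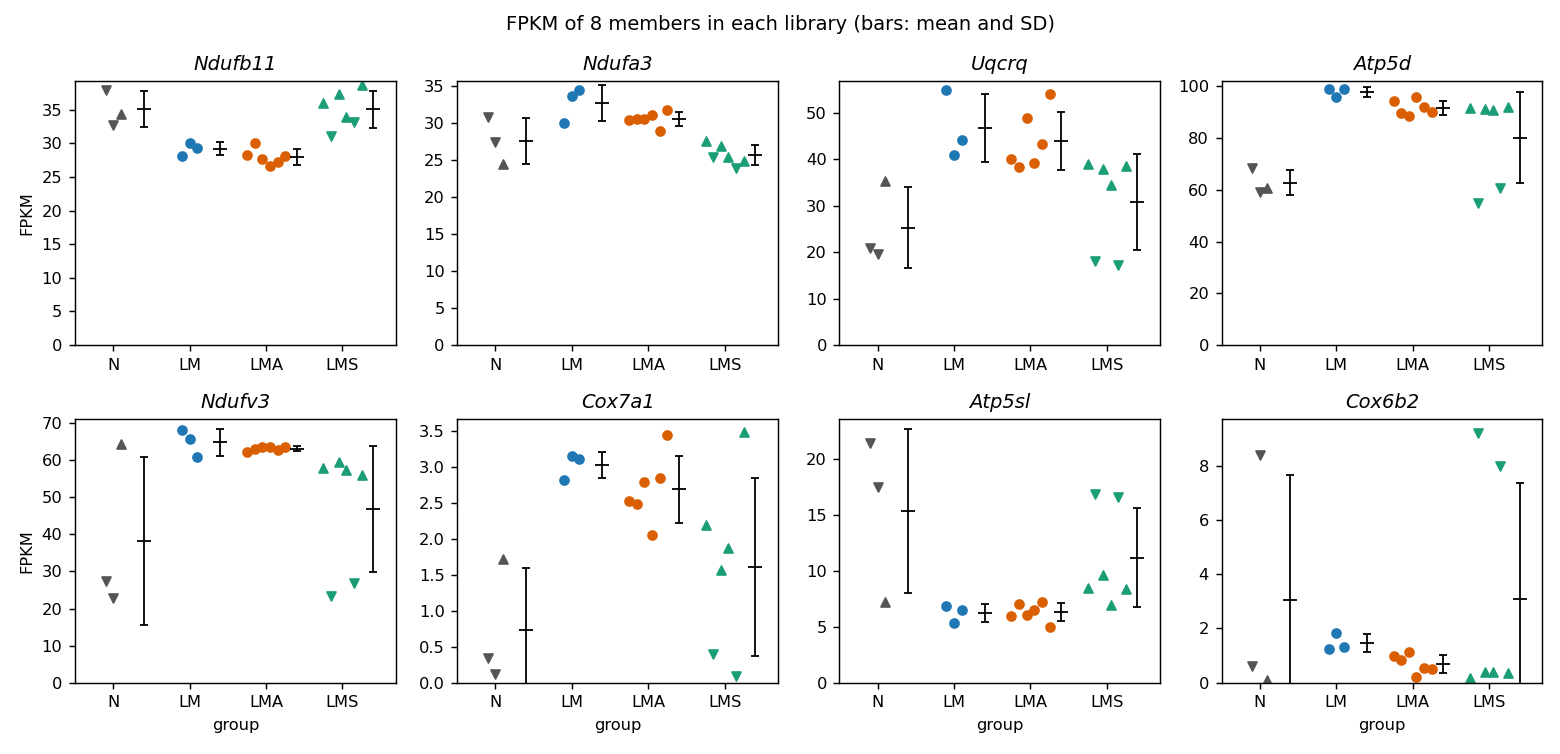
Points give FPKM of 8 members in each library by group, with the mean and SD beside them (bars are cut at 0); downward triangles are N 1, N 2, LMS 2 and LMS 5, upward triangles N 3 and LMS 1, 3, 4 and 6, and circles LM and LMA. Ndufb11 lies at 26.7 to 30.1 FPKM in LM and LMA and at 31.1 to 38.6 in N and LMS, and Ndufv3, Cox7a1, Atp5sl and Cox6b2 split the N and LMS libraries.

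Complex II is the succinate dehydrogenase of the citric acid cycle, with the flavoprotein Sdha, the iron-sulfur subunit Sdhb and the membrane anchors Sdhc and Sdhd. Sdhd, at 26.8, 33.7 and 99.0 FPKM in N, was at 67.5 to 73.2 in LM, 68.6 to 74.3 (median 71.3) in LMA and 29.7 to 99.0 (median 92.6) in LMS. Within N it differed more than between any groups. Its fold change of LMA against N was 0.66 ± 0.42 (limma, adjusted p = 0.22), and it was -0.47 (adjusted p = 7.1e-06) or 1.23 (adjusted p = 2.2e-08) without either library set. Sdha varied least of the 4, with 61.9, 58.5 and 76.3 FPKM in N, 57.6 to 62.4 (median 60.1) in LMA and 55.8 to 73.8 (median 72.1) in LMS. In Sdha, LM and LMA were on the level of N 1 and N 2 and not between the sets. Sdhc ranged from 11.1 to 25.6 and Sdhb from 30.8 to 61.8 FPKM over the 18 libraries, and 0 of the 4 subunits were called in any of the 6 comparisons with all libraries.

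Complex III holds the core proteins Uqcrc1 and Uqcrc2, the Rieske iron-sulfur protein Uqcrfs1 and small subunits. All 8 members had N 1, N 2, LMS 2 and LMS 5 below the other 14 libraries. Uqcrq, a small subunit beside cytochrome b, was the one called. Its FPKM was 21.0, 19.6 and 35.3 in N, 55.0, 40.9 and 44.2 in LM, 38.3 to 54.0 (median 41.7) in LMA and 17.3 to 39.1 (median 36.2) in LMS. LM and LMA were above N in every library, N 3 being the nearest. It rose by 0.91 ± 0.31 in LM (adjusted p = 0.044) and by 0.83 ± 0.27 in LMA (adjusted p = 0.027) in limma, and was 0.39 and 0.30 without the Xist-high set (adjusted p = 0.080 and 0.14). The hinge protein Uqcrh had the highest level of the complex (mean 154 FPKM), with 133 to 148 in LMA, all below the 151 to 154 of LM, and 201 to 212 in N 3 and the 4 LMS libraries of its level. Members with LMA all below LM were 4 (Atp5j2, Cox6b2, Cox7a2l and Uqcrh) beside 3.82% of all genes, and Ndufs1 had LMA all above LM beside 2.43%.

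In complex IV most ubiquitous subunits followed the sum. Cox5a was at 40.6, 43.4 and 113 FPKM in N, 108 to 115 in LM, 104 to 113 (median 106) in LMA and 43.5 to 115 (median 107) in LMS. Its LM and LMA libraries were on the upper level, with N 3, and the LMA difference from N of 0.88 ± 0.34 missed the threshold (limma, adjusted p = 0.057). Cox6b1, Cox7b and Cox7c followed the 3 levels, and Cox7a2l did not, with 94.6 to 145 FPKM and N 1 the highest. Ndufa4, now known as part of this complex, was at 52.2 to 60.2, 66.7 to 74.0 and 96.7 to 99.0 FPKM on the 3 levels.

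Tissue-restricted paralogues of complex IV behaved one by one. Cox7a1, the heart and muscle form of Cox7a, was at 0.348, 0.127 and 1.72 FPKM in N, 2.81, 3.15 and 3.11 in LM, 2.05 to 3.44 (median 2.66) in LMA and 0.0973 to 3.49 (median 1.72) in LMS. The LM and LMA libraries were all above N, and LMS 2 and LMS 5 were as low as N 1 and N 2. It rose by 1.74 ± 0.57 in LM (adjusted p = 0.036) and by 1.58 ± 0.49 in LMA (adjusted p = 0.021) on the log2(FPKM + 0.5) scale, which understates changes of genes this low; without the Xist-high set these were 0.66 and 0.51 (adjusted p = 0.058 and 0.11). Beside the ubiquitous Cox7a2, Cox7a1 made up 3.80% to 5.89% of the pair in LM and LMA and 0.260% to 4.37% in N and LMS. Cox6b2, known as the testis form of Cox6b, stood out in 3 libraries, with 8.37 FPKM in N 2, 9.19 in LMS 2 and 7.98 in the library LMS 5, against 0.113 to 1.85 in the other 15 libraries. The 3 high libraries are those with 16.9% to 18.4% hemoglobin, and the part of erythroid cells in this was not tested. In them Cox6b2 made up 10.8% to 12.1% of the Cox6b pair, and at most 1.60% elsewhere. Cox6a2, the muscle form of Cox6a, had the lowest mean of all members and ranged from 1.08 to 2.99 FPKM, 0.963% to 3.05% of its pair. It overlaps Itgad on the other strand.

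ATP synthase had the highest single levels: Atp5b, the catalytic beta subunit, had a mean of 335 FPKM and Atp5a1, the alpha subunit, 203. Atp5b was at 192, 247 and 424 FPKM in N, 337 to 349 in LM, 339 to 358 (median 344) in LMA and 223 to 408 (median 399) in LMS. LM and LMA lay between the N libraries, and the LMA difference from N was 0.35 ± 0.23 (limma, adjusted p = 0.25), -0.29 or 0.67 without either set. Atp5d, the delta subunit of the central stalk (chr10:80138632-80145818, plus strand), was the member of this complex called higher. It was at 68.3, 59.2 and 60.9 FPKM in N, 99.1, 95.7 and 98.8 in LM, 88.5 to 95.7 (median 91.0) in LMA and 54.8 to 92.0 (median 91.0) in LMS. N 3 was low with N 1 and N 2 here, unlike in most members, while LMS 2 and LMS 5 were low and the other LMS libraries on the level of LMA. It rose by 0.64 ± 0.17 in LM (adjusted p = 0.014) and by 0.54 ± 0.15 in LMA (adjusted p = 0.011), with 0.59 and 0.52 for LMA without either library set. Cbarp overlaps it on the other strand.

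The only member with N 1, N 2, LMS 2 and LMS 5 all highest was Atp5sl, the complex I assembly component. Its FPKM was 21.5, 17.5 and 7.26 in N, 6.85, 5.37 and 6.54 in LM, 5.01 to 7.18 (median 6.29) in LMA and 6.98 to 16.9 (median 9.07) in LMS. All LM and LMA libraries were below all N libraries, by a narrow margin to N 3. It fell by 1.11 ± 0.35 in LM (adjusted p = 0.031), by 1.10 ± 0.30 in LMA against N (adjusted p = 0.011) and by 0.71 ± 0.25 in LMA against LMS (adjusted p = 0.041). Without the Xist-high set these values were -0.21, -0.20 and -0.38 (adjusted p = 0.36, 0.34 and 0.0048). The 3 genes Atp5g1, Atp5g2 and Atp5g3 encode the same mature subunit c of the rotor ring. Atp5g1 was the lowest (3.62 to 21.6 FPKM) with Atp5g2 at 62.8 to 121 and Atp5g3 at 84.4 to 161, and none was called with all libraries. Atp5g1 was 5.02% to 7.57% of its sum with Atp5g2 in N 1, N 2, LMS 2 and LMS 5, and 6.95% to 15.5% in the other libraries. The f subunit Atp5j2 was the member of this complex with the smallest p without the Xist-high set: it was at 38.0 to 41.2 FPKM in LMA, 66.7 to 70.7 in LMS 1, 3, 4 and 6 and 68.5 in N 3, and differed by -0.77 between LMA and LMS (adjusted p = 4.6e-11).

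A few members were uneven within groups. Over the 9 LM and LMA libraries, 63 members had a coefficient of variation under 10% and 7 over 20%: Ndufb8 (68.8%), Cox6b2, Ndufb2, Atp5e, Atp5g1, Cox6a2 and Ndufa12. Ndufb8 was at 93.7 FPKM in LM 3 and 94.9 in LMA 6 and at 23.0 to 32.3 in the other 7, and shares its strand with the overlapping Gm20538. Atp5e, the epsilon subunit, was at 25.4 FPKM in LM 3 and 34.4 in LMS 6 but at 67.3 to 103 in the other 16 libraries. Atp5c1, the gamma subunit, was at 78.1 and 78.3 FPKM in LMA 3 and LMA 6 beside 121 to 129 in the remaining LM and LMA libraries. These libraries belong to different groups. In all, 19 of the 78 members overlap another protein-coding gene, mostly on the other strand.

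N 3 and LMS 1, 3, 4 and 6 were highest in both the nuclear and the mitochondrial sums. Below them the 13 mRNAs of the mitochondrial genome, which encode the subunits made from mitochondrial DNA, did not follow the nuclear members. Their summed FPKM was 26779 to 28860 in N 1, N 2, LMS 2 and LMS 5, 27580 to 32900 in LM, 22674 to 25817 in LMA and 36496 to 43048 in N 3 and LMS 1, 3, 4 and 6. The ratio to the nuclear sum was 8.85 to 9.15, 6.04 to 7.22, 5.07 to 5.88 and 6.77 to 8.19 in that order, so that LMA was the lowest and overlapped no other group. Neutrophil marker sums were highest in LMA, also without overlap, and their part in this was not tested. LMA against N called 9 of 13 lower and 0 higher in limma (median -0.78), beside 21.9% and 13.6% of all genes. Without the Xist-high set, where N is a single library, the median was -0.81. Without the Xist-low set 10 were lower and 1 higher, beside 44.3% and 35.6% of all genes. For LMA against LMS, 12 were lower and 0 higher (median -0.79), beside 19.4% and 11.3% of all genes. Without the Xist-high set 13 were lower and 0 higher, beside 44.0% and 28.0%. Without the Xist-low set 9 were lower and 1 higher, beside 42.2% and 36.6%. The order of nuclear and mitochondrial transcripts thus differed between LMA and the lowest libraries. An example is mt-Cytb, the cytochrome b of complex III, at 2284 to 2345 FPKM in N, 1397 to 1841 in LM, 874 to 1243 (median 977) in LMA and 2148 to 2916 (median 2573) in LMS. All LMA libraries were below every other library, with a log2 fold change of -1.19 ± 0.14 against N (limma, adjusted p = 1.4e-05).

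**Figure D5:**
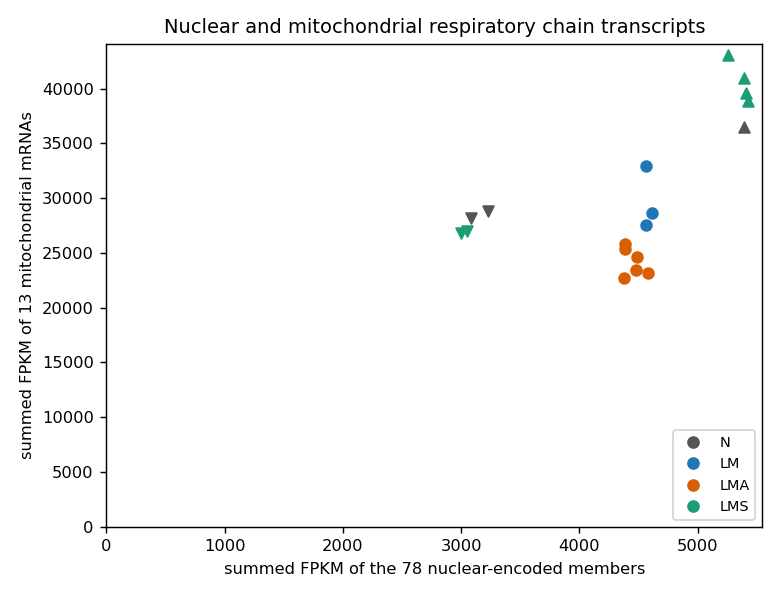
Each point is a library, with the summed FPKM of the 78 members on the horizontal axis and that of 13 mitochondrial mRNAs on the vertical axis; colours give the group, downward triangles N 1, N 2, LMS 2 and LMS 5, and upward triangles N 3 and LMS 1, 3, 4 and 6. LMA has the lowest mitochondrial sums (22674 to 25817) at middle nuclear sums (4373 to 4578).

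Other genes around the chain were counted from lists, to be read against the 13.6% higher and 21.9% lower of all genes in LMA against N, 25.6% and 36.0% without the Xist-high set, and 35.6% and 44.3% without the Xist-low set. Of 14 electron carriers, coenzyme Q enzymes and subunits that the rule leaves out, LMA against N had 2 higher (Coq3 and Coq7) and 1 lower (Coq2, the prenyl transferase of coenzyme Q synthesis, by 0.76 ± 0.12, adjusted p = 1.4e-04 in limma). Coq3 and Coq7, at adjusted p of 0.048 and 0.049, went from 1.27 and 0.81 to -0.011 and -0.13 without the Xist-high set (adjusted p = 0.93 and 0.29). Without either library set, 9 of the list were lower and 0 higher, or 1 lower and 11 higher. Of 45 assembly factors, 5 were higher and 10 lower, with a median of -0.01, and without either library set 8 were higher and 18 lower, or 21 and 14. Coa7, an assembly factor of complex IV, fell by 0.94 ± 0.12 on the log2 scale in LMA against N (limma, adjusted p = 3.2e-05). It was at 1.87 to 2.10 FPKM in N, 0.809 ± 0.131 (SD, n = 6) in LMA and 1.77 ± 0.185 (n = 6) in LMS. Ndufaf3, of complex I assembly, rose from 4.94 ± 0.276 to 7.45 ± 0.429, and Cox17, the copper chaperone of complex IV, from 47.4 ± 11.4 to 75.9 ± 4.59 (limma, adjusted p = 8.7e-05 and 0.0012). The log2 fold change of Cox17 was 0.70, and 0.34 or 0.88 without either library set. Among 20 enzymes of the citric acid cycle and pyruvate oxidation, only Pdk3, a kinase that inhibits pyruvate dehydrogenase, was called (higher, by 0.68), with a list median of 0.28. Pdk3 was at 0.10 (adjusted p = 0.084) without the Xist-high set. Without either library set, 14 of the 20 were lower or 15 higher, so this list turned like the members. The same held for 77 mitochondrial ribosomal proteins, with 6 higher and 7 lower in the fit of all libraries and 50 lower or 53 higher without either set.

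Among 14 regulators of mitochondrial biogenesis, 6 were lower and 2 higher in LMA against N, with 5 lower and 2 higher, or 9 lower and 3 higher, without either set. Tfam, which packages and transcribes mitochondrial DNA, was at 9.50 FPKM or more (median 12.4) in N, 6.29 to 6.62 in LM, 5.03 to 6.31 (median 5.61) in LMA and 9.88 to 13.3 (median 10.2) in LMS. It fell by 1.01 ± 0.12 (limma, adjusted p = 1.0e-05). Tfb2m, a mitochondrial transcription factor, was at 8.05 to 8.38 FPKM in N, 4.59 to 5.36 in LM, 4.05 to 4.86 (median 4.56) in LMA and 7.43 to 8.32 (median 7.88) in LMS, and fell by 0.81 ± 0.07 (adjusted p = 7.1e-07). Gabpb2, a subunit of GABP, fell by 0.68 ± 0.09 (adjusted p = 3.8e-05). None of the 3 had an LMA library within the range of N. Between N and LMA, each had the opposite order to the neutrophil marker sums. The mean of Gabpb2 was higher in LMA than in LM, as were those sums. The part of neutrophils in these differences was not tested. Cytosolic ribosomal proteins, of which 81 were tested, had 1 higher and 9 lower (median -0.10), and 12 higher and 22 lower, or 11 higher and 27 lower, without either library set.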

How the data were processed

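RNA sequencing of splenocytes gave 18 libraries in the groups N (3), LM (3), LMA (6) and LMS (6), as the labels name them. The authors deposited assembled transcripts and genes per library with FPKM, coverage and a column headed TPM; per the labels the build was mm10 and GATK 4.2 is named in the submitters' processing notes, and the aligner, quantifier and strand setting were not given in the sources used here. The deposited FPKM values were used. The deposited coverage signal served only for depth, which came to 5.21 to 7.92 gigabases per library. The deposited TPM column was taken as a score, since its sum exceeds that of TPM values, and was not used. Since no counts were given, no counting interval is given.

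Rows with the same Ensembl identifier were summed, and genes of GENCODE type protein-coding that averaged 0.5 FPKM or more entered the test on log2(FPKM + 0.5) in limma 3.58.1 (R 4.3.3) (11436 genes) with all 18 libraries in 1 fit, with Benjamini-Hochberg adjustment over all genes and a threshold of 0.05. The joins and plots used Python 3.11.15, pandas 2.3.3, numpy 2.4.6 and matplotlib 3.10.9. The fit was first tested on simulated data in which 200 genes were changed. Members, gene lists and tests were chosen with earlier results of these data known. Genes to name were, per complex, up to 4 members with the smallest adjusted p in LMA against N and up to 3 in LMA against LMS, members called against most of their complex, the 4 Sdh genes, tissue-restricted paralogues, the Atp5g genes, the highest and lowest member, those beside the minimum, and up to 3 genes of each list; Ndufs3, Ndufb8, Uqcrh, Cox7b, Cox7c, Atp5e, Atp5c1 and Atp5a1 were added after their values were seen. Alternatives were another pseudocount, other filters, other scalings, fits of 2 groups, a replicate block, each library left out and both library sets left out. The deviations of same-numbered libraries from their group means correlated at r from -0.642 to 0.906. Only between LM and LMS was r over 0.1 in every pair (0.223, 0.431 and 0.240). The main fit had the group as its only term in every comparison, and the replicate number entered only in the block alternative. No source says what a number shares.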

Additional observations from a re-analysis of the deposited data

Results flagged for a closer look

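Of 80 groups of values examined for a single distant library, 2 had one. Chance alone gives about 1 in 20, so 2 of 80 were fewer than chance gives. The 80 groups did not cover every member. Atp5j, which was not flagged, was at 40.1 FPKM in LMA 1 and at 50.5 to 55.2 in the other LMA libraries. Cox5b, a subunit of complex IV, was at 46.5 FPKM in LMA 5 and at 41.5 to 43.2 in the other LMA libraries, a gap of 0.664 of the range. The summed FPKM of complex I was 1300 in LMA 6 and 1199 to 1215 in the other LMA libraries, a gap of 0.838 of the range. Ndufb8 was at 94.9 FPKM in LMA 6 and at 23.0 to 30.3 in the others.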

How the results depend on the processing

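The counts of members called moved with the library sets, which were chosen after the data were seen, except for LMS against N, which had 13 calls without N 3 alone. Without N 1, N 2, LMS 2 and LMS 5 they were 46 (LM against N), 50 (LMA against N), 1 (LMS against N), 53 (LMS against LM) and 58 (LMA against LMS), and 65, 65, 0, 66 and 67 when N 3 and LMS 1, 3, 4 and 6 were left out instead. Leaving out 1 library at a time gave 1 to 35, 2 to 39, 0 to 13, 1 to 2 and 2 to 5. Scaling by medians of ratios gave 16 for LMA against N and 5 for LMA against LMS. With it 1764 of the 11436 genes were higher and 1607 lower in LMA against LMS. Equal sums without hemoglobin genes gave 11 and 5. Beside these stood 1818 higher and 2237 lower of all genes for LMA against N, and 1457 and 2091 for LMA against LMS. The cause was not tested. Medians of ratios moved the median of all genes in LMA against N from -0.13 to -0.02 and the calls from 1553 higher and 2501 lower to 2158 and 1764. Fits of only the 2 groups compared gave 0 for LM against N. In that fit 5 members and 2597 of all genes were at an unadjusted p under 0.05 in limma. Of all genes 46 were higher and 6 lower there. For LMS against LM such a fit gave 1, beside 1254 higher and 703 lower of all genes. With the replicate block LMS against LM had 1 call, Ndufa3, and lost Ndufb11, beside 1145 higher and 748 lower of all genes. LM against N had 4 calls (963 higher and 1631 lower of all genes). LMA against N had 5 (1206 and 2030) and LMA against LMS 4 (1263 and 2105). LMS against N and LMA against LM had 0, also of all genes. The mean summed FPKM became 212 for complex II, 978 for complex IV and 1562 for complex V in LMA and 1007 for complex IV in LM with medians of ratios, and 973 for complex IV in LM with equal sums. Ndufv3 in LMA against N changed sign, at -0.025 without N 1, N 2, LMS 2 and LMS 5. Of 18 calls, Ndufa3 (LMA against LMS, LMS against LM) and Ndufb11 (LMA against LMS, LMA against N) passed the threshold under every alternative run.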
